A study of Mus musculus with 12 samples.

Results

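Transcripts of 6 chemoattractant receptors (Fpr1, Fpr2, Gpr84, Cxcr1, C5ar1 and Ccr1) were followed in cultured mouse airway macrophages (AMs). The receptors were listed by name, with no threshold on a value but with earlier results of these data known, and all 6 were found among the 20551 genes of the count table. The cells came from Scnn1b-Tg mice and from wild-type (WT) littermates, all C57BL/6 and 6 weeks old. The Scnn1b transgene encodes the beta subunit of the epithelial sodium channel, is driven by the club cell promoter in airway epithelium and not in AMs, and leads to mucus obstruction of the airways. Cells from 3 to 4 animals were combined into a pool, and every pool gave 1 library from cells stimulated with LPS (lipopolysaccharide of Pseudomonas aeruginosa, 100 ng/ml) and 1 from cells kept in medium. The exposure lasted 12 h. Both genotypes thus had a medium group and an LPS group, which makes 4 groups of 3 libraries, from WT pools 16, 17 and 18 and Scnn1b-Tg pools 17, 18 and 19. WT 16, WT 17 and Tg 17 belonged to batch 1 of library preparation, and WT 18, Tg 18 and Tg 19 to batch 2. The labels describe lavage cells that adhered to plastic, whereas the methods of the study describe cells sorted from digested lung for sequencing, so the route of isolation is uncertain.

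Chemoattractant receptors are cell-surface proteins with 7 membrane-spanning helices that couple mainly to G proteins of the Gi class. When a ligand binds, the released G protein subunits activate phospholipase C and phosphoinositide 3-kinase, and the cell moves up the ligand gradient, releases granules or produces reactive oxygen. Receptor kinases and arrestins then switch the receptor off, and RGS proteins shorten the G protein signal. Fpr1 senses formylated peptides shed by bacteria and mitochondria. Fpr2 binds formylated peptides too and also annexin A1 and serum amyloid A. Gpr84 responds to medium-chain fatty acids. C5ar1 is the receptor for the complement fragment C5a, Ccr1 is a receptor for CC chemokines such as Ccl3, Ccl5 and Ccl6, and Cxcr1 is a receptor for CXC chemokines that carry the ELR motif. These receptors are best known from neutrophils and monocytes, and LPS is sensed by macrophages through Tlr4.

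On the mm10 build, Fpr1 (ENSMUSG00000045551) spans chr17:17876471-17883940 on the minus strand and Fpr2 (ENSMUSG00000052270) spans chr17:17887824-17893952 on the plus strand. The pair is arranged head to head, with 3884 bases between the annotated gene starts. Gpr84 (ENSMUSG00000063234) lies at chr15:103308235-103310612, Cxcr1 (ENSMUSG00000048480) at chr1:74191785-74194631, C5ar1 (ENSMUSG00000049130) at chr7:16246743-16259540 and Ccr1 (ENSMUSG00000025804) at chr9:123962124-123968692, all on the minus strand. Of the exon bases of Gpr84, 39.5% are overlapped by an antisense gene, Gm49482, which was not analysed here. Counting ignored strand, so reads of that gene could not be told apart from those of Gpr84. Fpr2 shares 3.70% of its exon bases with its close relative Fpr3, which held at most 3 counts in any library. The longest open reading frames of Fpr2 and Fpr3 were 88.2% identical, with no identical run longer than 94 bases, and those of Fpr1 and Fpr2 were 71.4% identical, with no identical run longer than 50 bases. Sequenced reads were 125 bases long. The open reading frames of Cxcr1 and its neighbour Cxcr2 were 72.0% identical, with no identical run longer than 14 bases.

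The 250 bases before the RefSeq transcription starts (GRCm38.p6, the assembly of mm10) are shown for Fpr1, Fpr2 and Gpr84, which changed most with LPS, and for Cxcr1, which changed the other way. They lie at chr17:17883940-17884189 (Fpr1, minus strand), chr17:17887574-17887823 (Fpr2, plus strand), chr15:103310439-103310688 (Gpr84, minus strand) and chr1:74194632-74194881 (Cxcr1, minus strand). Capitals mark a match to the PU.1 motif GAGGAA, here on the strand opposite to the gene. All 6 receptors had an entry in the promoter table.
Fpr1: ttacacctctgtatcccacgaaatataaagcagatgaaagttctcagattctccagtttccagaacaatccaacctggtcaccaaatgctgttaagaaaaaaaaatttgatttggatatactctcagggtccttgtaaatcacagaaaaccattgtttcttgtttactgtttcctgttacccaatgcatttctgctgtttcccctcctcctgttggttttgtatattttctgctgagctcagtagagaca
Fpr2: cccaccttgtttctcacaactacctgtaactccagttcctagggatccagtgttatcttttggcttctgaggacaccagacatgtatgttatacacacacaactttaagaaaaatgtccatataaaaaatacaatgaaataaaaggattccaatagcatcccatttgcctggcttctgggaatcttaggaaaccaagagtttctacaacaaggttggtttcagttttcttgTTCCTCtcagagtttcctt
Gpr84: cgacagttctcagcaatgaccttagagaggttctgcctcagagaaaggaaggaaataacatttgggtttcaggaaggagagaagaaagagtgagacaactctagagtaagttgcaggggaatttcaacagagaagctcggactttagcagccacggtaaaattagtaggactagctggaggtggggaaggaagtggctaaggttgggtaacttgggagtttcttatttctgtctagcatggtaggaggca
Cxcr1: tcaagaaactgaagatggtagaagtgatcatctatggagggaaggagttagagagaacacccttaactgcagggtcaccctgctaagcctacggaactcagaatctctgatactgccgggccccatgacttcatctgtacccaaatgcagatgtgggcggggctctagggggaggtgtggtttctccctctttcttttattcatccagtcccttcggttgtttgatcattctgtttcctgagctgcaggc

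Each window was searched on both strands for 5 motifs: NF-kB (by name), AP-1 (TGANTCA), PU.1 (GAGGAA), C/EBP (TTNNGCAA) and ISRE (GAAANNGAAA). Fpr2 held 1 PU.1 match, 19 to 14 bases before its start. Ccr1 held a PU.1 match 129 to 124 bases and an NF-kB match 74 to 65 bases before its start. No match was found in the windows of Fpr1, Gpr84, Cxcr1 and C5ar1. The Gpr84 window and the C5ar1 window (chr7:16259339-16259588) reach into the gene spans given above, because the annotations place the starts differently. Much of these windows is thus annotated gene sequence. Among 32851 promoter windows of the same length, 7.25% held the NF-kB motif, 6.75% the AP-1 motif, 23.3% the PU.1 motif, 9.56% the C/EBP motif and 2.98% the ISRE. The matches are letters in these windows and say nothing about binding.

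Libraries held 48.2 to 60.9 M deposited counts and 14918 to 16165 detected genes, and no pair was a duplicate. In its principal component analysis the paper reports an outlier among the WT LPS libraries, which its text does not name. All libraries were kept here, and fits that leave out each library in turn are described below. Levels are given as CPM (counts relative to the library total in M, scaled by TMM). The 12 listed markers of AMs summed to 8553 to 17070 CPM, and most of that sum was Chil3. With LPS, 7 of these 12 markers fell and 2 rose (Marco and Car4) in WT, and 8 fell and 2 rose in Scnn1b-Tg. Of all genes tested, 15.7% fell and 15.2% rose in WT, and 17.8% fell and 18.8% rose in Scnn1b-Tg. Siglecf, a surface marker of AMs, had group means of 115 CPM (medium) and 11.1 CPM (LPS) for WT and 118 and 6.47 CPM for Scnn1b-Tg. In the neutrophil list, the 7 markers in the table summed to between 14.8 and 37.8 CPM. S100a9 held at most 5 counts and Ngp at most 3, whereas S100a8, Cxcr2, Csf3r, Mmp8 and Ltf reached 748, 563, 518, 907 and 354 counts in a library. S100a8 rose with LPS, from group means of 2.86 to 7.32 CPM for WT and from 4.53 to 11.1 CPM for Scnn1b-Tg. For WT libraries that neutrophil sum ran from 20.7 to 24.2 CPM with medium and 14.8 to 17.5 with LPS, and for Scnn1b-Tg libraries from 27.3 to 37.8 and 16.5 to 22.3. Monocyte markers (10 genes) summed to 72.4 to 88.6 CPM (medium) and 177 to 219 CPM (LPS) for WT libraries and to 48.8 to 65.3 CPM and 138 to 195 CPM for Scnn1b-Tg libraries. Most of that sum came from Treml4, and Ly6c2, which defines classical monocytes, held at most 79 counts. Epithelial markers (8 genes) summed to 91.3 to 113, 84.7 to 126, 45.9 to 80.6 and 38.4 to 71.5 CPM in the same order, eosinophil markers to at most 0.340 CPM and lymphocyte markers to at most 1.94 CPM. The part of other cells in the receptor values was not tested. Fewer cells of a type and less RNA per cell cannot be told apart in such bulk samples. Scnn1b itself was at 0.251 to 0.385 CPM in the 4 groups and did not pass the test between genotypes in medium (adjusted p = 0.978 by edgeR).

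Exposure to LPS was used to ask how AMs of each genotype answer a bacterial product. Fpr1, Fpr2 and Gpr84 rose steeply in both genotypes, and Cxcr1 fell in both. In WT cells Ccr1 rose and C5ar1 fell by small amounts. The 3 steep risers had started from low or moderate levels in medium, whereas Cxcr1 had been high.

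Fpr1 was measured at 59.6, 41.9 and 57.5 CPM in WT medium (pools 16, 17 and 18) and at 791, 715 and 897 CPM in the LPS libraries of the same pools. In Scnn1b-Tg cells it was at 27.0, 40.6 and 43.8 CPM in medium (pools 17, 18 and 19) and at 849, 1102 and 1318 CPM in LPS. All 6 LPS libraries lay far above all 6 medium libraries. WT cells gave a log2 fold change of 3.91 (SE 0.16, adjusted p = 5.79e-08 by edgeR) and Scnn1b-Tg cells one of 4.88 (SE 0.17, adjusted p = 1.54e-08 by edgeR).

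Fpr2, the neighbour of Fpr1, was at 12.2, 9.19 and 14.1 CPM in WT medium and at 81.2, 64.3 and 109 CPM in WT LPS. The Scnn1b-Tg libraries held 4.77, 8.92 and 8.87 CPM in medium and 75.3, 105 and 125 CPM in LPS. Medium and LPS libraries did not overlap in either genotype. WT cells gave a log2 fold change of 2.82 (SE 0.15, adjusted p = 3.29e-07 by edgeR) and Scnn1b-Tg cells one of 3.78 (SE 0.16, adjusted p = 3.88e-08 by edgeR). The ratio of Fpr1 to Fpr2 in CPM was 4.50 ± 0.404 in medium and 9.70 ± 1.43 in LPS for WT, and 5.04 ± 0.554 in medium and 10.8 ± 0.437 in LPS for Scnn1b-Tg (SD, n = 3 each). The 6 medium ratios, 4.07 to 5.65, all lay below the 6 LPS ratios, 8.25 to 11.3, so the larger member of the pair was also the one with the larger fold change.

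Gpr84 was the scarcest of the 6 in medium and among the most strongly induced. WT medium libraries held 7.13, 6.19 and 5.54 CPM and WT LPS libraries 84.2, 102 and 100 CPM. Scnn1b-Tg libraries held 2.12, 4.09 and 2.91 CPM in medium and 112, 133 and 130 CPM in LPS. The lowest of these values rested on 124 deposited counts. The medium and LPS groups were apart in both genotypes, and WT cells gave a log2 fold change of 3.91 (SE 0.19, adjusted p = 1.96e-07 by edgeR) and Scnn1b-Tg cells one of 5.38 (SE 0.21, adjusted p = 3.07e-08 by edgeR). By size of the fold change among all 13729 genes tested, Gpr84, Fpr1 and Fpr2 ranked 174, 175 and 292 from the top in WT and 119, 135 and 201 in Scnn1b-Tg.

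Cxcr1 moved in the opposite direction. It was at 87.0, 85.6 and 96.4 CPM in WT medium and at 41.1, 43.4 and 43.7 CPM in WT LPS. In Scnn1b-Tg cells it was at 133, 121 and 154 CPM in medium and at 60.4, 41.2 and 74.4 CPM in LPS. Every LPS library was below every medium library, although the Scnn1b-Tg LPS libraries were spread widely. WT cells gave a log2 fold change of -1.07 (SE 0.18, adjusted p = 0.000996 by edgeR) and Scnn1b-Tg cells one of -1.22 (SE 0.18, adjusted p = 0.000318 by edgeR).

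**Figure D1:**
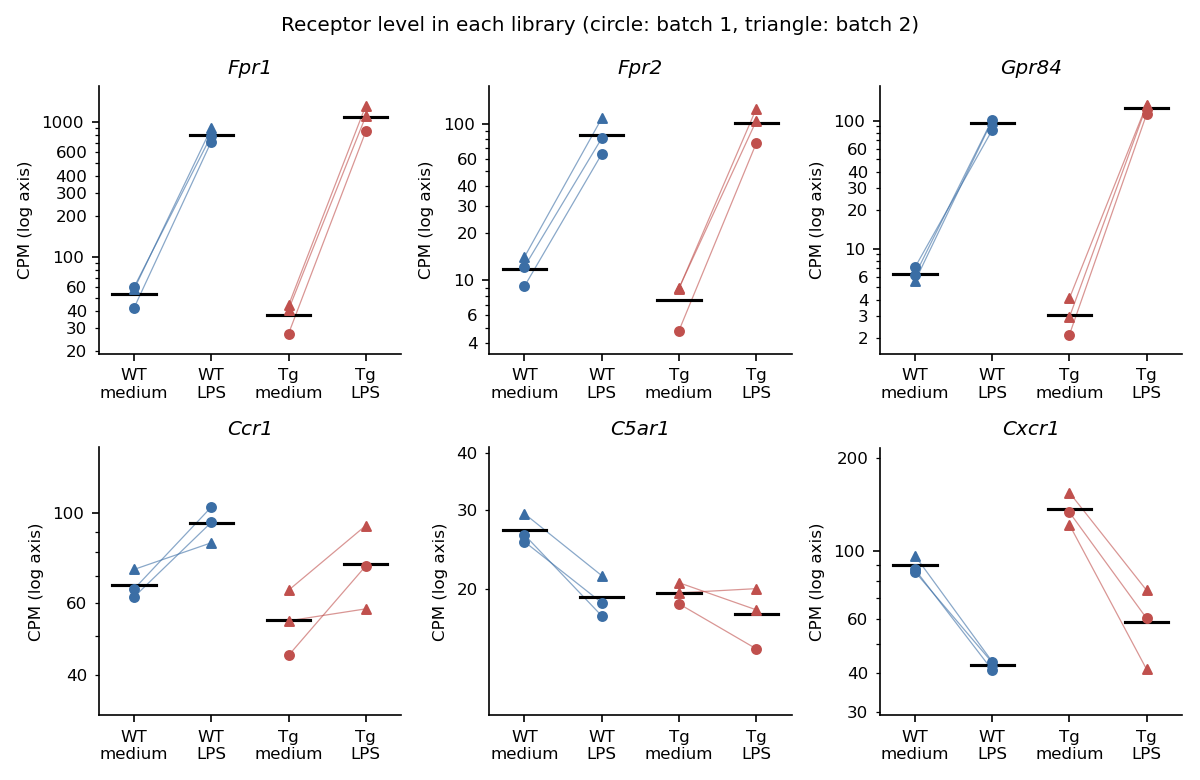
Level of each receptor in CPM (log axis) in the 12 libraries, by group, with WT in blue and Scnn1b-Tg (Tg) in red. Lines join the medium and LPS library of a pool, black bars are group means, circles are batch 1 and triangles batch 2. Fpr1, Fpr2 and Gpr84 rise in all 6 pools and Cxcr1 falls in all 6.

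C5ar1 was at 25.5, 26.4 and 29.4 CPM in WT medium and at 18.7, 17.5 and 21.4 CPM in WT LPS, with no overlap. It was at 18.6, 20.7 and 19.7 CPM in Scnn1b-Tg medium and at 14.8, 18.03 and 20.1 CPM in Scnn1b-Tg LPS, where the groups overlapped. The change passed the test in WT (log2 fold change -0.50, SE 0.087, adjusted p = 0.00136 by edgeR). In Scnn1b-Tg it was -0.16 (SE 0.087, adjusted p = 0.174 by edgeR).

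Ccr1 was at 65.1, 62.2 and 72.7 CPM in WT medium and at 103, 94.8 and 84.5 CPM in WT LPS. In Scnn1b-Tg cells it was at 44.7, 64.6 and 54.4 CPM in medium and at 74.1, 93.1 and 58.2 CPM in LPS. The WT groups did not overlap, whereas the LPS library of Tg 19 lay below the medium library of Tg 18. WT cells gave a log2 fold change of 0.51 (SE 0.17, adjusted p = 0.0470 by edgeR) and Scnn1b-Tg cells one of 0.47 (SE 0.17, adjusted p = 0.0561 by edgeR). Both estimates lay close to the threshold of 0.05. With the pool as a term, the adjusted p was 0.0205 in WT and 0.0268 in Scnn1b-Tg. The WT call ended on leaving out any one of the 3 WT medium libraries, the LPS library of WT 16 or WT 17, the LPS library of Tg 17 or the medium library of Tg 19 (highest adjusted p 0.133). The Scnn1b-Tg change passed the test without the LPS library of Tg 19, the LPS library of WT 18 or the medium library of Tg 18 (lowest adjusted p 0.00856).

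In WT, 6 of 6 receptors passed the test, 4 higher and 2 lower, and all 6 were without overlap between medium and LPS. Over all genes tested in that comparison, 30.9% passed, 15.2% higher and 15.7% lower, and 38.7% did not overlap. In Scnn1b-Tg, 4 of 6 passed, 3 higher and 1 lower, and 4 did not overlap, against 36.7%, 18.8%, 17.8% and 43.8% of all genes. The median log2 fold change of the 6 was 1.66 in WT and 2.12 in Scnn1b-Tg, where the medians over all genes were 0.0012 and -0.016. LPS changed a large share of the transcriptome, so passing the test is common there, and it is the size of the change that set Fpr1, Fpr2 and Gpr84 near the top. The monocyte marker sum was also higher, and the neutrophil sum lower, in the LPS libraries of both genotypes. Single markers went against these sums: S100a8 rose, and Ace, of the monocyte list, fell from group means of 14.1 to 1.10 CPM for WT and from 20.1 to 1.80 CPM for Scnn1b-Tg. The part of these markers, and of the AM markers that fell, in the receptor changes was not tested.

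Levels of different receptors were compared per kb of exon. In WT medium, Cxcr1 stood highest at 60.1 ± 3.96 CPM per kb, followed by Fpr1 at 40.0 ± 7.33, Ccr1 at 23.5 ± 1.91, C5ar1 at 10.5 ± 0.792, Fpr2 at 9.15 ± 1.93 and Gpr84 at 3.64 ± 0.461 (SD, n = 3). Only C5ar1 and Fpr2 overlapped as neighbours in that order. With LPS the order in WT became Fpr1 at 605 ± 69.1, Fpr2 at 65.4 ± 17.3, Gpr84 at 55.3 ± 5.65, Ccr1 at 33.3 ± 3.34, Cxcr1 at 28.7 ± 0.977 and C5ar1 at 7.47 ± 0.791 CPM per kb. Fpr2 and Gpr84 overlapped. Cxcr1 thus went from the first place to the fifth, and Gpr84 from the last to the third.

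The Scnn1b-Tg medium libraries had the same order as WT medium apart from overlaps: Cxcr1 at 91.5 ± 11.2, Fpr1 at 28.03 ± 6.75, Ccr1 at 19.3 ± 3.51, C5ar1 at 7.64 ± 0.409, Fpr2 at 5.80 ± 1.84 and Gpr84 at 1.76 ± 0.574 CPM per kb. Here Fpr1 and Ccr1 overlapped. In Scnn1b-Tg LPS the order was Fpr1 at 823 ± 177, Fpr2 at 78.5 ± 19.4, Gpr84 at 72.6 ± 6.56, Cxcr1 at 39.3 ± 11.2, Ccr1 at 26.5 ± 6.18 and C5ar1 at 6.86 ± 1.04 CPM per kb. Fpr2 overlapped with Gpr84 and Cxcr1 with Ccr1. Fpr1 was thus the highest of the 6 in LPS in both genotypes.

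**Figure D2:**
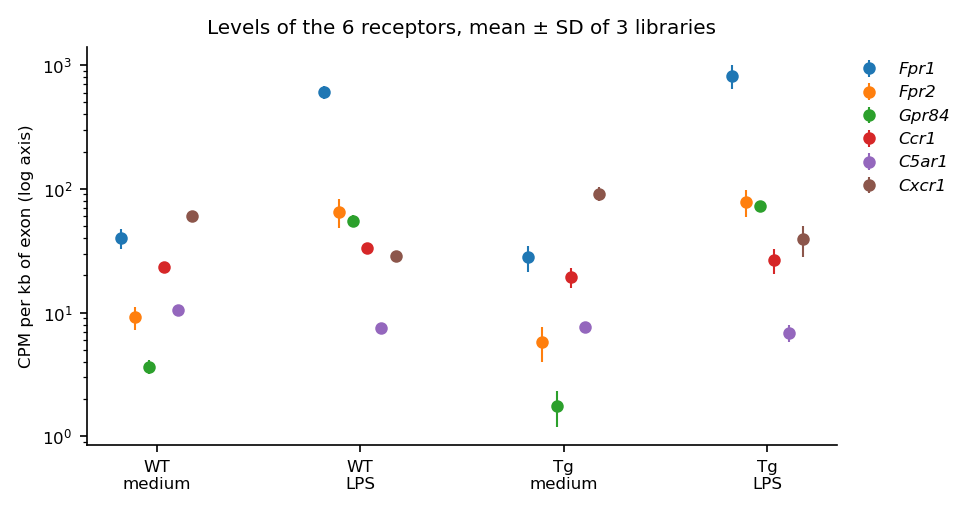
Level of the 6 receptors in CPM per kb of exon (log axis) in the 4 groups. Points are means and bars the SD of 3 libraries. Cxcr1 is highest in both medium groups, and Fpr1 is highest in both LPS groups, at 605 in WT and 823 in Scnn1b-Tg.

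Unstimulated AMs of the genotypes were compared to ask whether cells from mucus-obstructed airways differ at rest. Fpr2 and C5ar1 were lower in Scnn1b-Tg medium than in WT medium by the main test, and Gpr84 and Fpr1 had negative differences that missed the threshold. The Fpr2 difference was -0.90 on the log2 scale (SE 0.15, adjusted p = 0.0465 by edgeR), and its highest Scnn1b-Tg value, 8.92 CPM, lay just below the lowest WT value, 9.19 CPM. For C5ar1 it was -0.54 (SE 0.090, adjusted p = 0.0465 by edgeR), again with no overlap. These are narrow calls. With the pool as a random effect, Fpr2 had an adjusted p of 0.0673 and C5ar1 of 0.0593, and neither passed (limma voom). Each call also ended on leaving out any 1 of the 12 libraries, with adjusted p up to 0.292 for Fpr2 and 0.212 for C5ar1, both without the medium library of Tg 17.

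Gpr84 was lower in all 3 Scnn1b-Tg medium libraries than in all 3 WT medium libraries, with a log2 difference of -1.13 (SE 0.20, adjusted p = 0.0545 by edgeR). Without the medium library of Tg 18 that difference passed the test. It passed in no other fit that left out 1 library, and over all alternatives the adjusted p reached 0.292 (edgeR). Fpr1 overlapped between the genotypes, since the lowest WT library (41.9 CPM) was below the highest Scnn1b-Tg library (43.8 CPM), and its difference was -0.67 (SE 0.15, adjusted p = 0.102 by edgeR). Cxcr1 went the other way: all Scnn1b-Tg medium libraries were above all WT medium libraries, by 0.59 on the log2 scale (SE 0.18, adjusted p = 0.213 by edgeR). For Ccr1 the difference was -0.33 (SE 0.18, adjusted p = 0.494 by edgeR), with overlap.

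Of the 6 receptors, 2 passed in medium, both lower, where 0.262% of all genes passed, 0.102% higher and 0.16% lower. Groups did not overlap for 4 of the 6, against 18.4% of all genes. At an unadjusted p under 0.05, 5 of the 6 receptors and 1784 of the 13729 genes differed. DESeq2 called far more genes in medium, 501 against 36 with edgeR. The 501 held 4 of the 6 receptors: Fpr2 (adjusted p = 1.3e-05), C5ar1 (adjusted p = 6.07e-06), Gpr84 (adjusted p = 5.96e-06) and Fpr1 (adjusted p = 0.00239). Within batch 1 and batch 2, the difference of log2(CPM + 0.5), Scnn1b-Tg minus WT, was -0.88 and -0.44 for Fpr1, -1.07 and -0.64 for Fpr2, and -1.45 and -0.61 for Gpr84. It was 0.62 and 0.50 for Cxcr1, -0.47 and -0.53 for C5ar1 and -0.50 and -0.29 for Ccr1, so each receptor kept its direction in both batches. The epithelial and monocyte marker sums were lower, and the neutrophil sum higher, in Scnn1b-Tg medium than in WT medium, and their part in these differences was not tested.

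The genotypes were then compared after LPS, to ask whether stimulated cells differ. None of the 6 receptors passed the test between Scnn1b-Tg LPS and WT LPS (0.051% of all genes did, 7 genes, or 11 with the pool as a random effect), 2 had an unadjusted p under 0.05, against 931 genes in all, and DESeq2 called none. The log2 difference was 0.30 for Fpr1 (SE 0.15, adjusted p = 0.798 by edgeR) and 0.058 for Fpr2 (SE 0.14, adjusted p = 1.00 by edgeR). Without the LPS library of Tg 19 or that of WT 17, the Fpr2 difference was -0.0042 or -0.012. For Gpr84 the difference was 0.33, and all 3 Scnn1b-Tg LPS libraries (112 to 133 CPM) lay above all 3 WT LPS libraries (84.2 to 102 CPM), but the adjusted p was 0.844 (edgeR). It was the only one of the 6 without overlap, a state that held for 9.11% of all genes. Cxcr1 (0.44), C5ar1 (-0.20) and Ccr1 (-0.36) overlapped between the genotypes. Within batch 1 and batch 2 the differences were 0.17 and 0.43 for Fpr1, 0.059 and 0.074 for Fpr2, 0.28 and 0.39 for Gpr84, 0.51 and 0.34 for Cxcr1, -0.28 and -0.17 for C5ar1 and -0.42 and -0.20 for Ccr1.

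**Figure D3:**
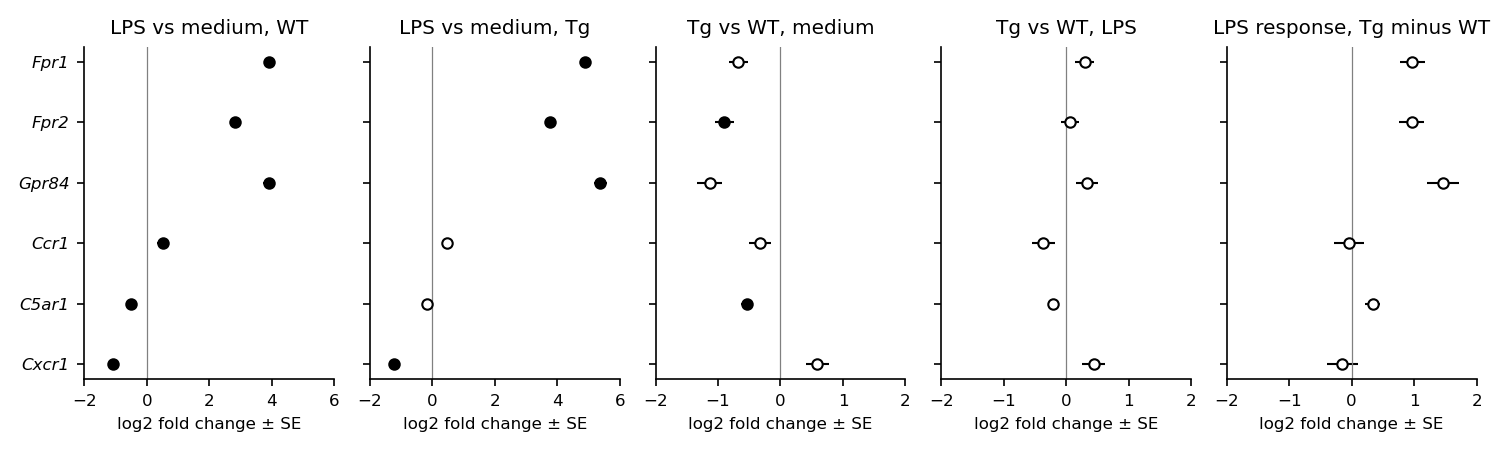
Fitted log2 fold change of each receptor in the 5 comparisons (x axes, with 1 range for both LPS panels and another for the rest). Points are estimates, bars are SE, and filled points passed an adjusted p under 0.05. Only Fpr2 and C5ar1 are filled in the comparison of genotypes in medium, at -0.90 and -0.54.

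The LPS responses of the genotypes were compared pool by pool, since each pool gave both libraries. Fpr1 rose 13.3-, 17.1- and 15.6-fold in WT pools 16, 17 and 18 and 31.5-, 27.1- and 30.1-fold in Scnn1b-Tg pools 17, 18 and 19. Fpr2 rose 6.63-, 7.004- and 7.69-fold in the WT pools and 15.8-, 11.7- and 14.1-fold in the Scnn1b-Tg pools. Gpr84 rose 11.8-, 16.5- and 18.1-fold in WT and 52.9-, 32.6- and 44.8-fold in Scnn1b-Tg. For all 3 of these genes every Scnn1b-Tg pool had a larger fold change than every WT pool.

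Levels of C5ar1 in LPS were 0.734, 0.663 and 0.730 of the medium level in the WT pools and 0.796, 0.871 and 1.02 of it in the Scnn1b-Tg pools, so these ranges did not overlap either. The Cxcr1 ratios were 0.472, 0.507 and 0.453 in WT and 0.453, 0.339 and 0.482 in Scnn1b-Tg, and the Ccr1 ratios were 1.59, 1.52 and 1.16 in WT and 1.66, 1.44 and 1.07 in Scnn1b-Tg. Both of these overlapped. The pool changes of the genotypes were thus without overlap for 4 of the 6 receptors, against 16.5% of all genes. On the log2(CPM + 0.5) scale the difference in mean pool change, Scnn1b-Tg minus WT, was 0.95 for Fpr1, 0.92 for Fpr2, 1.36 for Gpr84 and 0.33 for C5ar1. For each of these 4 an exact two-sided permutation test gave p = 0.10, which is the smallest value that 3 against 3 pools allow. That value follows from the lack of overlap and adds nothing to it. The same permutation test gave p = 0.40 for Cxcr1 and p = 0.70 for Ccr1.

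**Figure D4:**
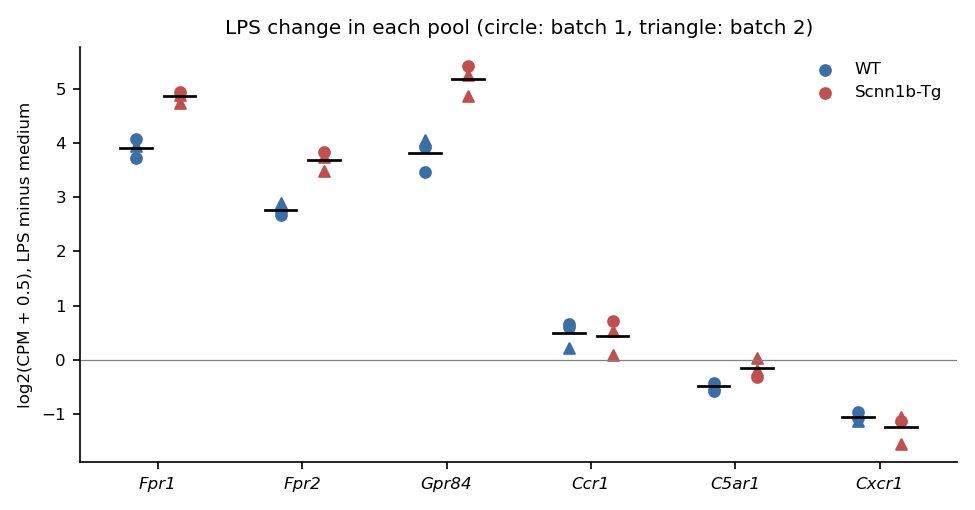
Change with LPS in each pool, as the difference of log2(CPM + 0.5) between the LPS and the medium library (y axis), for WT pools in blue and Scnn1b-Tg pools in red. Black bars are means of 3 pools. For Fpr1, Fpr2, Gpr84 and C5ar1 the ranges of the genotypes do not overlap.

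In the model across all genes, the difference of the LPS response was 0.97 for Fpr1 (SE 0.20, adjusted p = 0.374 by edgeR), 0.96 for Fpr2 (SE 0.20, adjusted p = 0.374 by edgeR) and 1.46 for Gpr84 (SE 0.26, adjusted p = 0.278 by edgeR). It was 0.33 for C5ar1 (adjusted p = 0.767 by edgeR), -0.15 for Cxcr1 (adjusted p = 0.999 by edgeR) and -0.039 for Ccr1 (adjusted p = 1.00 by edgeR). edgeR thus called 0 of the 6 receptors and 0% of all genes. At an unadjusted p under 0.05, 4 receptors and 795 genes differed. With the pool as a term the adjusted p was 0.178 for Fpr1, 0.205 for Fpr2 and 0.205 for Gpr84. DESeq2 called 77 genes, among them Gpr84 (adjusted p = 6.43e-05), Fpr1 (adjusted p = 0.00476) and Fpr2 (adjusted p = 0.00585). For each of these 3 genes, 18 of 19 alternatives left the difference of responses uncalled, as the main test did, and only DESeq2 called it. The direction, larger in Scnn1b-Tg, held under every alternative tried for the 3 genes. For these 3 genes the differences between genotypes given above were -1.13 to -0.67 in medium and 0.058 to 0.33 in LPS.

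The other genes of the pathway were taken from lists chosen by function. Of 36 other chemoattractant receptors, 29 were in the table and 14 had enough counts to be tested. In WT, 4 rose and 3 fell with LPS, and in Scnn1b-Tg 4 rose and 2 fell. Of all genes tested, 15.2% rose and 15.7% fell in WT, and 18.8% rose and 17.8% fell in Scnn1b-Tg. The median log2 fold change of the 14 receptors was 0.64 in WT and 0.26 in Scnn1b-Tg. Ccrl2, an atypical receptor that binds chemerin without signalling, rose from 88.6 ± 5.7 to 315 ± 29 CPM (SD, n = 3) among WT libraries and from 90.0 ± 11 to 431 ± 80 CPM among Scnn1b-Tg libraries. Gpr132, a receptor for lysophospholipids and oxidised fatty acids, rose from 3.15 ± 0.80 to 14.6 ± 2.4 and from 1.71 ± 0.79 to 11.3 ± 2.9 CPM. Cxcr4, the receptor for Cxcl12, fell from 31.6 ± 2.1 to 12.2 ± 1.0 and from 38.9 ± 2.8 to 11.4 ± 0.66 CPM. Ccr7, which guides cells to lymph nodes, rose in both genotypes and was the only one of the 14 that edgeR called between genotypes in medium (4 had an unadjusted p under 0.05, and DESeq2 called 2). There WT libraries held 2.02 ± 0.27 CPM and Scnn1b-Tg libraries 5.01 ± 0.82 CPM (log2 difference 1.32, SE 0.20, adjusted p = 0.0391 by edgeR). A random effect for the pool ended that call (adjusted p 0.0610 by limma voom). Of the 12 fits that leave out 1 library, only the 2 without the LPS library of Tg 18 or Tg 19 kept it (adjusted p up to 0.214 in the others).

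Cxcr2, the neighbour of Cxcr1 and its partner in binding neutrophil-attracting chemokines, is named here after its values were seen. WT libraries held 4.00 ± 0.36 CPM in medium and 0.185 ± 0.092 CPM in LPS, and Scnn1b-Tg libraries 7.50 ± 2.0 and 0.232 ± 0.20 CPM. It fell with LPS, as Cxcr1 did, with a log2 fold change of -4.40 among WT cells (SE 0.64, adjusted p = 0.000401 by edgeR) and -4.99 among Scnn1b-Tg cells (SE 0.63, adjusted p = 0.00011 by edgeR). The LPS values are close to the floor of 3 reads, 0.131 to 0.166 CPM.

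Genes listed as ligands of the 6 receptors had the highest median change of the 4 lists. Whether the listed Cxcl1, Cxcl2 and Cxcl3 act through Cxcr1 or through Cxcr2, which is not among the 6, was not tested. Of 18 listed, 15 were in the table and 13 were tested. In WT, 9 rose and 2 fell with LPS (median log2 fold change 4.91), and in Scnn1b-Tg 10 rose and 2 fell (median 5.42). The share of all genes that passed was 30.9% in WT and 36.7% in Scnn1b-Tg. Cxcl3, a neutrophil-attracting chemokine, was at 6.00 ± 3.0 CPM in medium and 5286 ± 663 CPM in LPS for WT cells, and at 4.32 ± 2.9 and 5850.5 ± 755 CPM for Scnn1b-Tg cells. Cxcl1 and Cxcl2, of the same ELR class, had log2 fold changes of 8.02 (SE 0.36) and 7.48 (SE 0.33) in WT and 8.58 (SE 0.37) and 8.33 (SE 0.34) in Scnn1b-Tg. The ligands that fell were Anxa1, the annexin that acts through Fpr2, and Ccl6, a ligand of Ccr1. Anxa1 dropped to 252 ± 16 CPM from 538 ± 41 for WT cells and to 236 ± 41 CPM from 549 ± 42 for Scnn1b-Tg cells. This ligand of Fpr2 thus fell while Fpr2 rose, but Saa3, a listed serum amyloid A gene, rose with LPS. Saa3 group means went from 0.154 to 1.84 CPM for WT and from 0.235 to 10.8 CPM for Scnn1b-Tg, near the floor in medium. Ccl6 was at 147 ± 17 and 61.7 ± 10 CPM in WT and at 296 ± 140 and 128 ± 94 CPM in Scnn1b-Tg. Ccl3, another ligand of Ccr1, rose by 4.53 on the log2 scale in WT (SE 0.21) and by 5.32 in Scnn1b-Tg (SE 0.22). Saa3 and Ccl3 are named here after their values were seen.

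Between genotypes 0 of the 13 ligands passed with edgeR in medium, where 2 had an unadjusted p under 0.05 and DESeq2 called 2, and 1 passed in LPS. Ccl5, a ligand of Ccr1, was at 38.4 ± 4.6 CPM in WT LPS and 176 ± 30 CPM in Scnn1b-Tg LPS, a log2 difference of 2.05 (SE 0.13, adjusted p = 0.000229 by edgeR). It was among the 7 genes of the whole table that passed in that comparison. Ccr1 itself did not pass there.

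Genes of Gi signalling (22 listed, 21 tested) moved in both directions and by less. In WT 2 rose and 9 fell, and in Scnn1b-Tg 3 rose and 9 fell, with median log2 fold changes of 0.041 and 0.00039. Over all genes, 15.2% rose and 15.7% fell in WT, and 18.8% rose and 17.8% fell in Scnn1b-Tg. Plcb2, a phospholipase C that Gi-coupled receptors activate, fell by 1.59 on the log2 scale in WT (SE 0.16) and by 2.07 in Scnn1b-Tg (SE 0.16). Gna15, a G protein alpha subunit that couples receptors to phospholipase C, fell by 1.203 (SE 0.078) and 1.35 (SE 0.078), and Dock2, which activates Rac, fell by 1.06 (SE 0.14) and 1.54 (SE 0.15). The GTPase Rac2, a subunit of the phagocyte oxidase, rose by 0.40 (SE 0.090) and 0.65 (SE 0.090). Vav1, an exchange factor for Rac, rose in Scnn1b-Tg by 0.55 (SE 0.11).

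Of 15 regulators that switch receptors off or shorten G protein signals, 13 were tested. In WT 4 fell and none rose by edgeR (0 rose at an unadjusted p under 0.05 or by DESeq2). In Scnn1b-Tg 1 rose and 3 fell, and the medians were -0.30 in WT and -0.34 in Scnn1b-Tg. Of all genes tested, 30.9% passed in WT and 36.7% in Scnn1b-Tg, so the share of regulators called was no higher than that of all genes. Rgs2, which speeds the shut-off of G proteins, dropped to 4.16 ± 0.96 CPM from 51.1 ± 9.0 for WT cells and to 3.07 ± 0.52 CPM from 60.5 ± 14 for Scnn1b-Tg cells. Rgs10, of the same family, fell by 1.19 (SE 0.19) in WT and by 1.05 (SE 0.19) in Scnn1b-Tg on the log2 scale. Grk2, a kinase that marks active receptors for arrestin, fell in WT by 0.33 (SE 0.10, adjusted p = 0.0290 by edgeR). Arrb2, an arrestin, rose in Scnn1b-Tg by 0.20 (SE 0.067, adjusted p = 0.0337 by edgeR). Between genotypes none of the 21 signalling genes and none of the 13 regulators passed with edgeR in medium or in LPS. At an unadjusted p under 0.05 there were 4 signalling genes and 4 regulators in medium and 3 and 1 in LPS, and DESeq2 called 1 signalling gene in medium and no other.

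**Figure D5:**
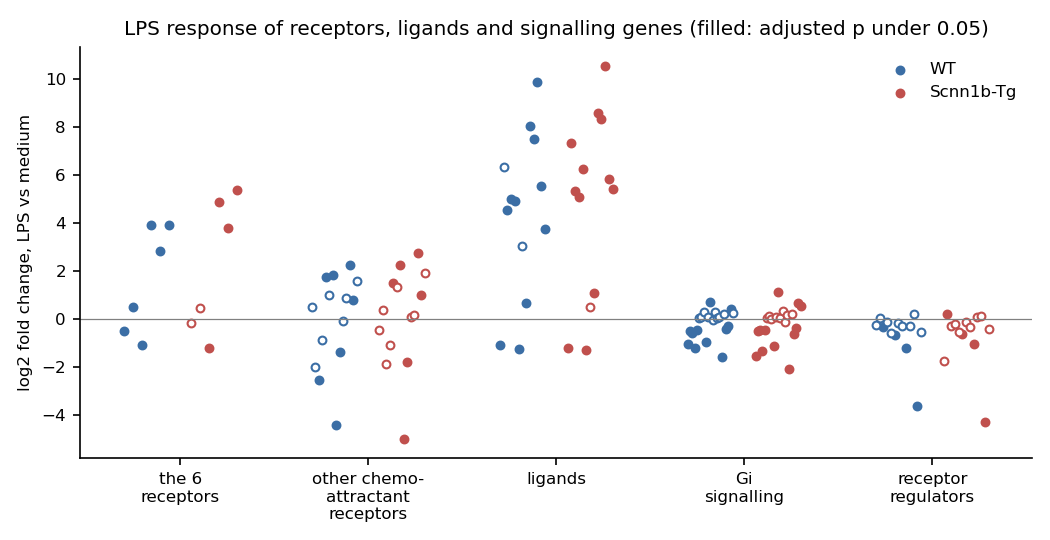
Log2 fold change with LPS (y axis) of every tested gene in the 6 receptors and the 4 lists, for WT in blue and Scnn1b-Tg in red. Each point is a gene and filled points passed an adjusted p under 0.05. Listed ligands reach the highest values, up to 9.86 in WT and 10.54 in Scnn1b-Tg, and the signalling genes stay closest to 0.

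The genes whose pattern over the 12 libraries was most like that of each receptor were taken by Pearson's r of log2 CPM among 8771 protein-coding genes with a mean of at least 5 CPM. For Fpr1 they were Tnf (r = 0.998) and Cxcl2 (r = 0.997), for Fpr2 Mettl1 (r = 0.994) and Gch1 (r = 0.994), and for Gpr84 Cdc42ep2 (r = 0.999) and Nfkbie (r = 0.997). For Cxcr1, Tmem151a (r = 0.985) is given. C5ar1 had weaker matches, Mrm2 (r = 0.903) and Akirin2 (r = 0.902), as had Ccr1, with Gm6169 (r = 0.948) and Bin1 (r = 0.923). Among the receptors themselves, r was 0.993 for Fpr1 and Fpr2, 0.992 for Fpr1 and Gpr84 and 0.987 for Fpr2 and Gpr84. It was -0.867, -0.870 and -0.901 for Cxcr1 with these 3. The 12 libraries share pools and 6 of them share LPS, so these values largely restate the step from medium to LPS and are given without a test.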

How the data were processed

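RNA of 12 AM libraries was sequenced after amplification of full-length cDNA, as pairs of 125-base reads. The authors aligned reads to mm10 with HISAT2 (unstranded) and quantified genes with StringTie against GENCODE M20, and the deposited values are the estimated counts per gene that this gave, as whole numbers. Low values step by about 2.5 counts per read (55.3% of values from 1 to 30 are 0 or 3 modulo 5, against 40% if spread evenly), so 48.2 to 60.9 M counts stand for about 9.64 to 12.2 M read pairs. Intervals and floors of such counts would cover counting error only.

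Of 20551 gene IDs, 20158 were named through GENCODE M21 on the same build. Low genes were removed with filterByExpr (min.count 10, min.total.count 15), and the rest were scaled by TMM and tested, two-sided, with the edgeR 4.0.16 quasi-likelihood model in R 4.3.3, with terms for group and batch over all 12 libraries. The Benjamini-Hochberg adjustment covered 13729 genes (threshold 0.05). Alternatives were a pool term, a pool random effect (limma 3.58.1 voom; for the LPS comparisons and the difference of responses it was added after seeing the data), DESeq2 1.42.0 and its size factors, no filter, no batch term, counts divided by 5, only the 6 libraries compared, and each library left out. Scripts were tested on simulated data. Pools pair the libraries: deviations of the medium and LPS library of a pool from their group means correlated at 0.137 to 0.335 in all 6 pools. Batch was not removed there, and both libraries of a pool share a batch, so these values also hold the batch difference. With batch in the model, limma voom estimated a pool correlation of 0.3265. The main edgeR model has no pool term, so its p-values measure the spread between libraries and leave the pairing out. Only the fits with a pool term or a pool random effect take the pairing into account.

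The receptors and lists were chosen with earlier results of these data known. Of 151 listed entries, 132 were analysed before the filter. Besides the receptors, the rule named the 2 most similar genes per receptor and, per list and comparison, up to 3 rises and 3 falls that passed the test at a mean of at least 5 CPM. Some genes that the rule named are not reported here.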

Additional observations from a re-analysis of the deposited data

How the results depend on the processing

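Over 582 recomputed receptor values, 522 kept their direction and side of the threshold, 41 lost a call, 13 gained one and 6 turned sign. All LPS calls of Fpr1, Fpr2, Gpr84 and Cxcr1 in both genotypes, and that of C5ar1 in WT, held under all 20 alternatives. The Ccr1 call was lost in WT under 9 of 20 and gained in Scnn1b-Tg under 6 of 20. In medium, the calls of Fpr2 and C5ar1 were each lost under 16 of 19, Gpr84 was gained under 3 and Fpr1 under 1. The cause was not tested.

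The number of receptors called in medium was 2, and it was 0 with the pool random effect, without the filter, without the batch term and with only the 6 libraries compared, 4 with DESeq2, and 0 to 1 on leaving out a library. Genes called in medium were 36, against 501 with DESeq2, 20 without the filter, 19 without the batch term, 61 with counts divided by 5, 12 with only the 6 libraries, and 4 to 27 on leaving out a library (lowest without the medium library of Tg 17). In LPS they were 7, against 11 with the pool random effect, 146 with DESeq2, 1 without the batch term, 11 with counts divided by 5, 2 with only the 6 libraries and 2 to 11 on leaving out a library. For the difference of responses they were 0, against 77 with DESeq2 (3 of them receptors) and 0 to 1 on leaving out a library. With the pool as a term (the replicate block), LPS changed 5027 genes in WT and 5784 in Scnn1b-Tg, against 4242 and 5032, and apart from the calls of Ccr1, Fpr2 and C5ar1 given above, pairing changed no receptor call.

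Values that turned sign were small throughout: the Fpr2 difference in LPS (-0.0042 without the LPS library of Tg 19, -0.012 without that of WT 17, and -0.012 to 0.15 over all libraries left out), the Cxcr1 difference of responses (0.067 without the LPS library of Tg 18, and -0.37 to 0.067 over all) and the Ccr1 difference of responses (0.13 without the LPS library of Tg 19, 0.058 without that of WT 16, 0.092 without the medium library of Tg 18, and -0.21 to 0.13 over all). Depth limits Gpr84 in medium most.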
